A study of Mus musculus with 4 samples.

Results

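The translation factors described here are 40 named mouse genes that start, extend and end protein synthesis on the ribosome. They were chosen by symbol, through the Ensembl gene identifier of each row, and not by any measured value. The choice was made with earlier results of these data known. Of the 40 genes, 37 have a row in the table of 30049 genes and all 37 passed the filter on low values. The other 3, Eif3j2, Eif4e and Eef2, were not analysed here. By role, 13 of the genes with a row encode subunits of eIF3, 10 encode eIF4 factors or the poly(A)-binding protein Pabpc1, 8 encode eIF1, eIF5 or eIF6 factors, and 6 are elongation or release factors.

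Initiation of translation begins when eIF4 factors bind the cap of an mRNA and unwind its leader. The large complex eIF3 sits on the small ribosomal subunit, links it to the cap complex, and works with eIF1, eIF1A, eIF2 and eIF5 to find the start codon. eIF5B then joins the large subunit, elongation factors carry aminoacyl-tRNA to the ribosome and move it along, and release factors end the chain at the stop codon. The mouse embryo at the 2-cell stage translates mRNA left by the oocyte while its own genome is being switched on.

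Both groups were wild-type embryos of the strain labelled BDF1*BDF1 F2. Zygotes taken 18 h after injection of human chorionic gonadotropin spent 24 h in the embryo culture medium KSOM, either without DMSO (control) or with 2% DMSO, a common solvent. For each group 50 embryos that had reached the 2-cell stage were collected, and 2 libraries per group were made from pooled embryos. Whether each library held 50 embryos or a share of them, and whether the libraries came from separate cultures, is not stated, so p-values measure the spread between these libraries, which may be technical. The comparison asks how DMSO altered the RNA of each factor.

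Values are TPM, in which the reads of a gene are corrected for transcript length and scaled to the total of the library. The TPM of all listed genes was 768174 for control replicate 1, 780527 for control replicate 2, 772487 for DMSO replicate 1 and 799166 for DMSO replicate 2. Values are given in the order of the replicate numbers throughout. TPM values keep no read depth, so no counting error is given. In pooled embryos, fewer cells that hold an RNA and less of it per cell cannot be told apart, and a lower share cannot be told apart from a rise of other RNA. The 20 most abundant genes took 22.1 and 23.6% of the summed TPM in control embryos and 29.4 and 35.1% in DMSO-treated embryos. Genes of the mitochondrial genome took 10.8 and 12.4% in control embryos and 15.3 and 21.7% in DMSO-treated embryos. With TPM rescaled without those genes, 11 factors in place of 14 passed the test described below.

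The label of the samples was checked against marker genes. Of 12 markers of the 2-cell embryo, 11 have a row and none of them is at 0 in any library. They summed to 1705 and 1473 TPM in control embryos, where Obox6 was the most abundant, and to 3867 and 2679 TPM in DMSO-treated embryos, where Gm5662 was. All 11 were tested as described below, and 5 were called higher in DMSO, against 6.42% of all genes tested. These were Tcstv1, Tcstv3, Usp17lc, Gm5662 and Zfp352. Obox6 was called lower, against 14.1% of all genes tested. The 12 markers of the oocyte summed to 1154 and 733 TPM in control embryos and to 2931 and 2251 TPM in DMSO-treated embryos, with Oosp1 the most abundant in all 4 libraries. Of the 11 oocyte markers tested 2, Bmp15 and Oosp1, were called higher, against 6.42% of all genes tested, and none lower. The log2 fold change was above 0 for 8 of the 11 and below 0 for 3, namely Zp3, Padi6 and Mos. The 12 markers of cumulus and granulosa cells summed to 3.51 and 2.51 TPM in control embryos and to 4.80 and 3.70 TPM in DMSO-treated embryos, and 7, 6, 6 and 5 of them were listed at 0. The most abundant of them were Tnfaip6 at 1.52 TPM in control replicate 1 and Cyp11a1 at 2.10 TPM in DMSO replicate 1. The part that the shift in oocyte and 2-cell markers, mitochondrial RNA and abundant genes has in the results that follow was not tested.

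Translation factor RNA was lower in DMSO-treated embryos. The 37 genes together summed to 8494 and 9044 TPM in control embryos and to 6020 and 6547 TPM in DMSO-treated embryos, or 1.11 and 1.16% against 0.779 and 0.819% of all listed TPM. In limma on log2(TPM + 1), where a gene was called at an adjusted p under 0.05 over all 12038 genes tested, 14 of the 37 fell and none rose, and none of the 4 with a log2 fold change above 0 had an unadjusted p under 0.05. Among all genes tested, 14.1% were called lower and 6.42% higher. The factors that fell were 9 eIF3 subunits, Eif4e2, Pabpc1, Eif1a, Eif5b and the release factor Gspt1. Both DMSO libraries lay below both control libraries for 30 of the 37 factors, against 38.7% of all genes, and above them for 2, against 31.1% of all genes. The median log2 fold change of the 37 factors was -0.84, with a range from -2.80 to 0.30, beside a median of -0.09 over all genes tested.

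The medians of the 4 groups were compared as a description. The median log2 fold change was -1.58 for eIF3, -0.63 for the eIF4 group, -0.60 for eIF1, eIF5 and eIF6, and -0.50 for elongation and release. With quantile normalization the last 3 medians were -0.36, -0.36 and -0.27, and that of eIF3 was -1.31. The eIF3 subunits summed to 1813 and 2081 TPM in control embryos and to 510.0 and 771 TPM in DMSO-treated embryos. The eIF4 group summed to 2689 and 2845 TPM in control embryos and to 1916 and 2225 TPM in DMSO-treated embryos. The eIF1, eIF5 and eIF6 group summed to 3165 and 3164 TPM in control embryos and to 3062 and 2942 TPM in DMSO-treated embryos. This group had the highest summed TPM in every library. Elongation and release factors summed to 827 and 954 TPM in control embryos and to 533 and 609 TPM in DMSO-treated embryos. The groups were not tested against each other.

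**Figure D1:**
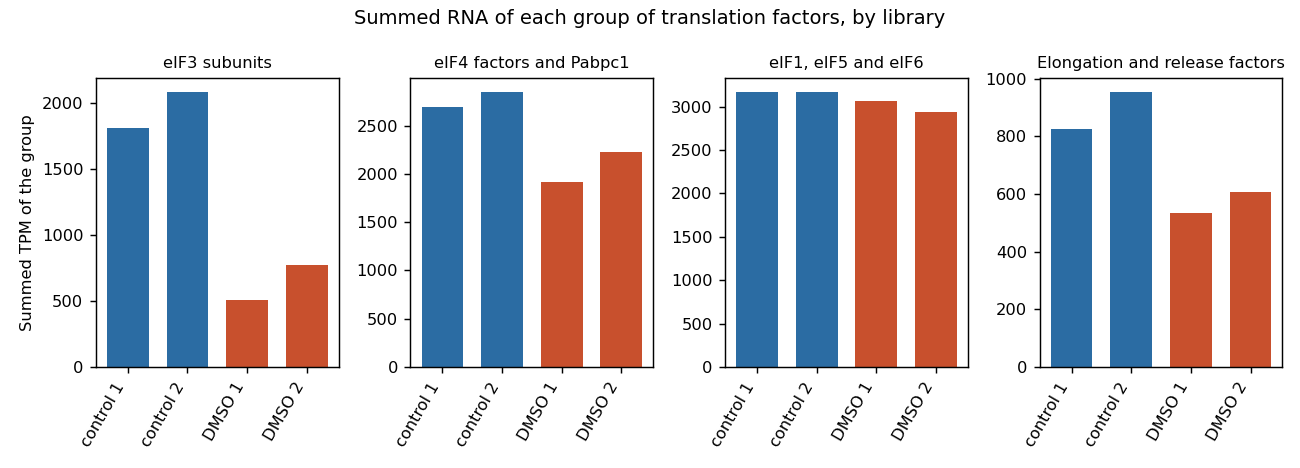
Summed TPM of the 4 groups of translation factors in each library, 1 panel per group and 1 bar per library, with y axes that start at 0 and differ in height between panels. The eIF3 bars are at 1813 and 2081 TPM in control and at 510.0 and 771 TPM in DMSO, and those of eIF1, eIF5 and eIF6 lie between 2942 and 3165 TPM.

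Removal of a library, the filter and the scaling between libraries limit these calls. Without control replicate 1, without control replicate 2 or without DMSO replicate 1, limma called 0 of the 37 factors and 0 of all genes, while 3745, 2602 and 3078 genes had an unadjusted p under 0.05. Without DMSO replicate 2 it called 13 factors. Quantile normalization, which gives every library the same distribution, kept 7 of the 14 calls. Over all genes it gave 1121 lower and 1076 higher calls in place of 1697 and 773, and median-ratio scaling gave 1262 and 949. With no filter on low values 0 of 22257 genes were called, and 5368 of them, 21 factors included, had an unadjusted p under 0.05.

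Most of the factors that fell belong to eIF3. Of its 13 subunits with a row, 9 fell (69.2%, against 14.1% of all genes tested) and none rose. All 13 had a log2 fold change below 0, against 53.2% of all genes tested, and 12 had both DMSO libraries below both control libraries, against 38.7% of all genes tested. The subunits Eif3a, Eif3c, Eif3e, Eif3f, Eif3h, Eif3k, Eif3l and Eif3m form the core of the mammalian complex, and 7 of these 8 fell. Eif3b, Eif3g and Eif3i form a module beside the core, and of these Eif3g fell. Eif3d, which contacts the mRNA cap on some transcripts, also fell, and Eif3j1, a loosely bound subunit, did not pass the test.

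Eif3l, a core subunit (chromosome 15, 79075179 to 79094405 on GRCm38, plus strand), had the lowest level in DMSO relative to control. Its level was 62.7 and 57.3 TPM in control embryos and 5.36 and 11.0 TPM in DMSO-treated embryos. The groups were far apart, with the mean in control 7.35-fold that in DMSO, and the log2 fold change was -2.80 (SE 0.37, adjusted p = 0.0181). Over all alternatives run for Eif3l, leaving out each library included, the log2 fold change lay between -3.26 and -2.35.

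Eif3e, which lies next to Eif3d in the complex, was at 124 and 186 TPM in control embryos and at 22.4 and 51.0 TPM in DMSO-treated embryos, a log2 fold change of -2.13 (SE 0.43, adjusted p = 0.0265). Eif3d was at 26.8 and 46.3 TPM in control and at 8.67 and 8.03 TPM in DMSO, a log2 fold change of -1.96 (SE 0.35, adjusted p = 0.0221). Both genes had lower values in each DMSO library than in each control library. Other genes hold 40.2% of the 31-base words of the Eif3d transcripts, so its level is uncertain. Eif3h, the most abundant subunit per length in control, was at 410.3 and 417 TPM in control and at 91.1 and 126 TPM in DMSO. The control libraries were nearly equal and the DMSO libraries retained 26.2% of their mean, a log2 fold change of -1.94 (SE 0.27, adjusted p = 0.0181). Other genes share 29.4% of the words of Eif3h.

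Eif3a, the large scaffold of the complex, was at 296 and 302 TPM in control embryos and at 93.0 and 114 TPM in DMSO-treated embryos. Eif3c, its partner in the core, was at 247 and 266 TPM in control and at 51.9 and 93.0 TPM in DMSO. The replicates of both genes lay close together in control and the groups did not overlap. The log2 fold change was -1.53 (SE 0.25, adjusted p = 0.0208) for Eif3a and -1.87 (SE 0.33, adjusted p = 0.0221) for Eif3c. Eif3g, an RNA-binding subunit that acts in scanning, was at 278.5 and 348.5 TPM in control and at 64.6 and 134.5 TPM in DMSO, a log2 fold change of -1.73 (SE 0.38, adjusted p = 0.0310). Eif3k, which pairs with Eif3l, was at 119.8 and 204 TPM in control and at 42.1 and 63.6 TPM in DMSO, a log2 fold change of -1.58 (SE 0.36, adjusted p = 0.0323). DMSO replicate 1 was the lowest library for each of Eif3a, Eif3c, Eif3g and Eif3k. Eif3f, a core subunit of the MPN family, showed the smallest called change among the subunits, with 64.4 and 63.4 TPM in control, 30.5 and 35.8 TPM in DMSO and a log2 fold change of -0.93 (SE 0.26, adjusted p = 0.0489). With quantile normalization Eif3f, Eif3g and Eif3k were not called. Their log2 fold changes were then -0.67 (adjusted p = 0.109), -1.45 (adjusted p = 0.0532) and -1.31 (adjusted p = 0.0591).

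Of the remaining subunits, Eif3b, a scaffold of the outer module, was at 92.2 and 88.3 TPM in control embryos and at 55.2 and 62.0 TPM in DMSO-treated embryos, with a log2 fold change of -0.62 (adjusted p = 0.116). Eif3i, its WD-repeat partner, was at 18.7 and 13.0 TPM in control and at 8.52 and 4.56 TPM in DMSO, with a log2 fold change of -1.19 (adjusted p = 0.0691). Neither passed the test, although the libraries did not overlap. Eif3j1 was at 52.9 and 74.6 TPM in control and at 26.5 and 50.9 TPM in DMSO, and 53.6% of its words occur in other genes, Eif3j2 being the one that shares most. Eif3m was at 19.8 and 14.7 TPM in control and at 10.3 and 16.9 TPM in DMSO, the only subunit whose groups overlapped. Other genes share 28.7% of the words of Eif3m.

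**Figure D2:**
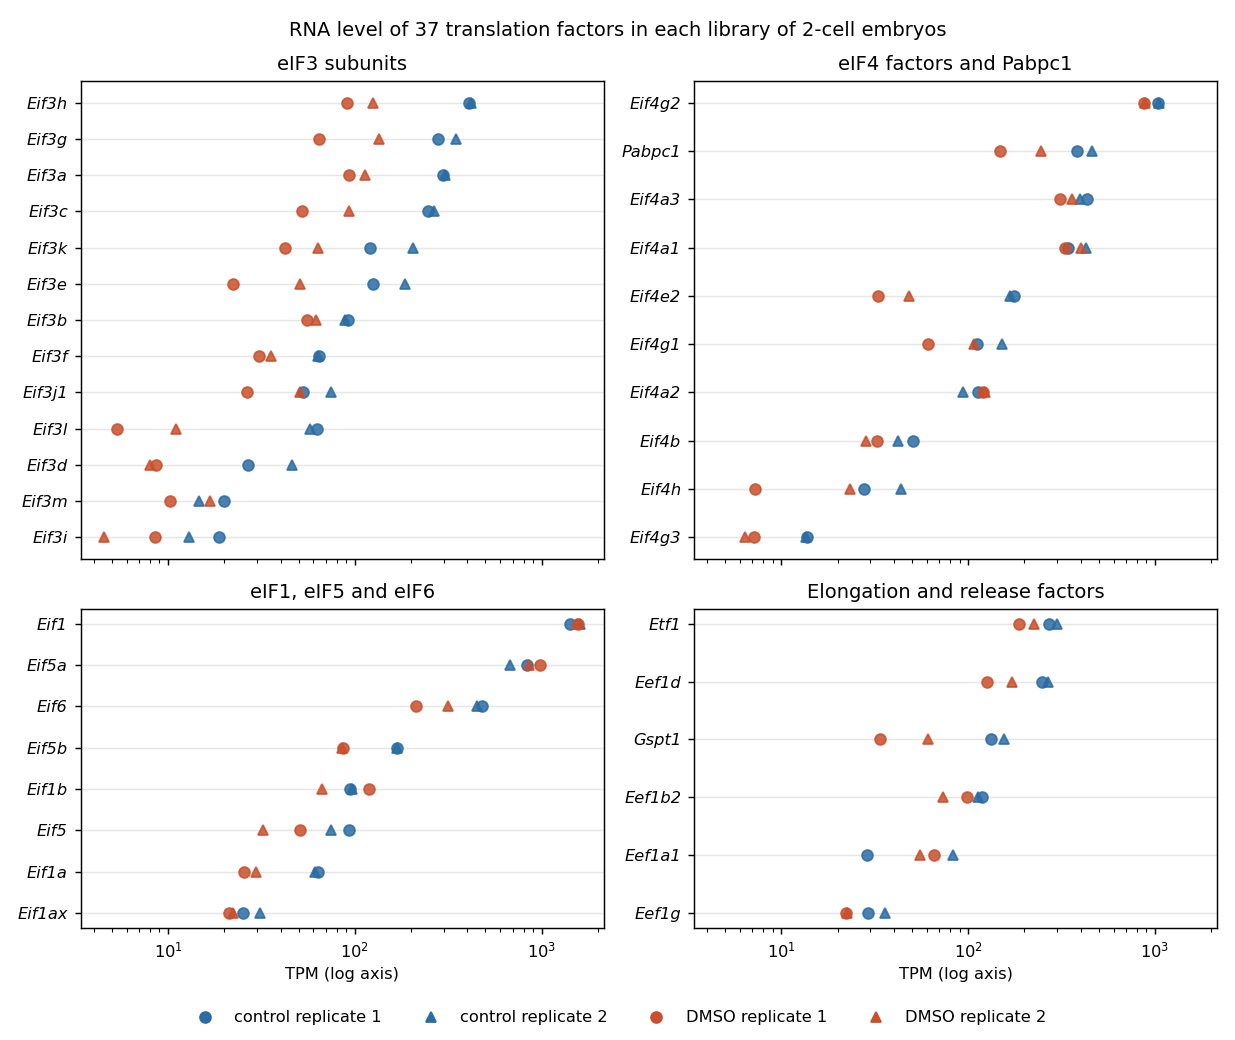
TPM of each of the 37 translation factors in the 4 libraries on a log10 axis, ordered by group, with 1 point per library. Control points lie to the right of DMSO points for 12 of 13 eIF3 subunits, while those of Eif4a1, Eif1, Eif1b and Eef1a1 overlap.

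Position and promoter sequence were not used to choose the genes. The 37 factors lie on 13 chromosomes, and 7 of them are on chromosome 15, of which Eif3d, Eif3e, Eif3h, Eif3l and Pabpc1 fell. Among all genes tested on chromosome 15, 58 of 431 were called lower, or 13.5%. RefSeq promoter windows, from 250 bases before to 50 bases after a gene's start on GRCm38.p6, matched 27 of the 37 factors. They were searched on both strands for CCGGAAG, the core of an ETS factor motif common in promoters of housekeeping genes, which reads CTTCCGG on the other strand. It was found in 6 of the 10 factors with a window that fell and in 4 of the 17 that were not called. Its share was 30.1% among all genes called lower, 10.1% among those called higher, 18.9% among all genes tested and 9.12% among all windows. A match is a description of the letters and was not tested as a binding site.

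The RefSeq start can differ from the outermost start in GENCODE, from which gene positions are given here. For 15 of the 27 factors, the 150 bases before the RefSeq start reach past the GENCODE start, so a match there may lie inside the gene. They do so by 44 bases for Eif3l, 45 for Eif3c and 33 for Eif3g. Counted from the RefSeq start, the matches that begin at -35 in Eif3l and -34 in Eif3c lie past the GENCODE start. Those that begin at -68 in Eif3c and -44 in Eif3g lie before both starts. For 12 factors all of the 150 bases lie before both starts, and examples among them are shown 5′ to 3′ on the gene's strand. Eif3d and Gspt1 fell and hold the motif, and Eif4a1 and Eif5a were not called and hold none. Of those not shown, Eif3a, Eif3f, Eif3k and Eif5b fell and hold no match in their windows. Eif4e2 fell and holds a match only after the start. Eif3b and Eif4b were not called and hold none, and Eif1ax, not called, holds a match at position -212. Capitals mark CTTCCGG.
Eif3d, chr15:77970825-77970974, minus strand: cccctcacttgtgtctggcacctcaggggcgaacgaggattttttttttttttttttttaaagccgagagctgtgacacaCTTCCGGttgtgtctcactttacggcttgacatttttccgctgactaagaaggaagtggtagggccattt
Gspt1, chr16:11254326-11254475, minus strand: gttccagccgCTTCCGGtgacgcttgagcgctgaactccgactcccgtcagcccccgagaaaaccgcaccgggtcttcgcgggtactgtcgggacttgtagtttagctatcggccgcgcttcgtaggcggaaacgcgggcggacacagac
Eif4a1, chr11:69672424-69672573, minus strand: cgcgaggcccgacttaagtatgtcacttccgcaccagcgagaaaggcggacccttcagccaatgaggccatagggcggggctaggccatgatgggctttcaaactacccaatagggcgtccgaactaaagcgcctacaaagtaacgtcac
Eif5a, chr11:69921959-69922108, minus strand: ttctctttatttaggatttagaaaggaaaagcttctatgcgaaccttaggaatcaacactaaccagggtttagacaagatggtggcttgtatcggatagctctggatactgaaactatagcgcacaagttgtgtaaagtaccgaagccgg

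An E-box and a pair of core promoter motifs were searched as well. The E-box CACGTG, which reads alike on both strands, was found in 7 of the 27 factor windows (25.9%), namely in 3 of the 10 that fell and in 4 of the 17 not called, against 9.74% of all genes tested. CCAAT was found in 6 of 27 (22.2%), against 40.1% of all genes tested, and TATAAA in 2 of 27 (7.41%), against 7.54%. No match overlapped a match of another motif in a factor window, and both strands were searched for each.

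The eIF4 group holds the factors of the mRNA cap and, with Pabpc1, of its tail. Of 10 genes 2 fell and none rose, a share of 20% near the 14.1% of all genes called lower. A log2 fold change below 0 was found for 9 of the 10, against 53.2% of all genes tested. Eif4e2, a cap-binding protein also known as 4EHP that represses translation of the mRNA it binds (chromosome 1, 87213914 to 87240488 on GRCm38, plus strand), was at 175 and 168 TPM in control embryos and at 33.0 and 48.4 TPM in DMSO-treated embryos. The DMSO libraries held 23.7% of the control mean, a log2 fold change of -2.07 (SE 0.29, adjusted p = 0.0181), and Eif4e2 stayed called under quantile normalization. Pabpc1, which coats the poly(A) tail and binds eIF4G, was at 381 and 459 TPM in control and at 148 and 245 TPM in DMSO. Its groups did not overlap, with a log2 fold change of -1.13 (SE 0.32, adjusted p = 0.0493). It was not called with quantile normalization, where the log2 fold change was -0.89 (adjusted p = 0.0934).

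None of the helicase genes passed the test. Eif4a1, the main helicase of the cap complex, was at 343 and 427 TPM in control embryos and at 328 and 401 TPM in DMSO-treated embryos. The groups overlapped and the log2 fold change was -0.08 (SE 0.26, adjusted p = 0.836). That sign turned with scaling, to 0.02 with median-ratio scaling or without mitochondrial genes and to 0.17 with quantile normalization. Eif4a2, its close relative, was at 113 and 93.5 TPM in control and at 119.9 and 122 TPM in DMSO, with a log2 fold change of 0.23 (adjusted p = 0.504). Eif4a3, a helicase of the exon junction complex, was at 432 and 398 TPM in control and at 309.6 and 361 TPM in DMSO, with a log2 fold change of -0.31 (adjusted p = 0.365). Other genes share 31.1% of the words of Eif4a1 and 31.2% of those of Eif4a3, so these levels are uncertain.

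The scaffolds of the cap complex did not pass the test. Eif4g1, the main scaffold, was at 111 and 152 TPM in control embryos and at 61.1 and 107 TPM in DMSO-treated embryos, with a log2 fold change of -0.68 (adjusted p = 0.191). Eif4g3 was at 13.7 and 13.6 TPM in control and at 7.14 and 6.42 TPM in DMSO, with a log2 fold change of -0.91 (adjusted p = 0.0679). Eif4g2, a relative that does not bind the cap protein eIF4E, was the most abundant gene of the group at 1042 and 1049 TPM in control and 869 and 882 TPM in DMSO. Its replicates lay close together and its groups did not overlap, but the log2 fold change of -0.26 did not pass the test (adjusted p = 0.432). The helicase cofactors Eif4b, at 50.6 and 42.0 TPM in control and 32.6 and 28.4 TPM in DMSO, and Eif4h, at 27.8 and 43.8 TPM in control and 7.25 and 23.4 TPM in DMSO, did not pass either, with log2 fold changes of -0.59 and -1.34.

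**Figure D3:**
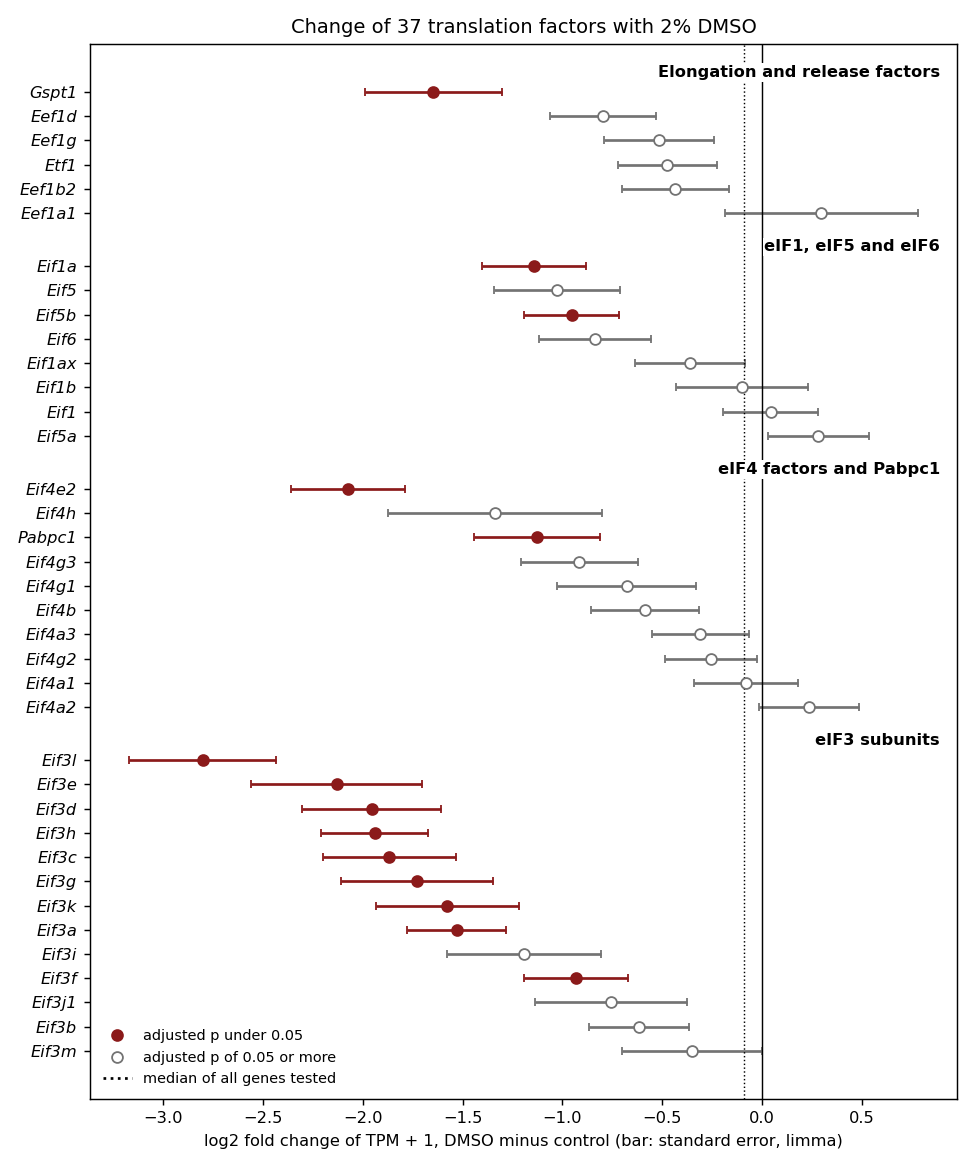
Log2 fold change of TPM + 1, DMSO minus control, for the 37 factors, with bars of 1 standard error from limma and filled points for genes with an adjusted p under 0.05. The largest fall is that of Eif3l at -2.80, and 4 factors lie above 0, none of them called.

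The eIF1, eIF5 and eIF6 group holds factors that act in start codon choice or control subunit joining, and Eif5a, which acts in elongation. Of the 8 genes 2 fell and none rose, beside 14.1% of all genes called lower, so the count is close to the background for so small a group. For 6 of them the log2 fold change was below 0, against 53.2% of all genes tested. Eif1, which keeps scanning ribosomes from starting at a wrong codon and was the most abundant of the 37 factors, was at 1411 and 1610.3 TPM in control embryos and at 1572 and 1539 TPM in DMSO-treated embryos. The groups overlapped, with a log2 fold change of 0.04 (adjusted p = 0.898) that turned to -0.03 with quantile normalization. Eif5a, which helps the ribosome through hard stretches such as runs of proline, was at 833 and 672 TPM in control and at 974 and 852 TPM in DMSO, with a log2 fold change of 0.28 (adjusted p = 0.424). Eif1b, a close relative of Eif1, was at 94.2 and 96.7 TPM in control and at 119 and 66.5 TPM in DMSO, and its groups overlapped. Its log2 fold change of -0.10 turned to 0.18 with quantile normalization.

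The members of this group that fell were Eif1a and Eif5b. Eif1a, which binds the decoding site during scanning, was at 63.2 and 61.0 TPM in control embryos and at 25.6 and 29.7 TPM in DMSO-treated embryos. Eif5b, the GTPase that joins the subunits, was at 168 TPM in both libraries of control embryos and at 86.9 and 85.4 TPM in DMSO-treated embryos. The replicates of both genes were tight, and the log2 fold changes were -1.14 (SE 0.26, adjusted p = 0.0323) for Eif1a and -0.95 (SE 0.24, adjusted p = 0.0390) for Eif5b. With quantile normalization neither was called, with log2 fold changes of -0.90 (adjusted p = 0.0578) for Eif1a and -0.67 (adjusted p = 0.0849) for Eif5b. Eif5, which triggers GTP hydrolysis by eIF2 at the start codon, was at 93.1 and 74.4 TPM in control and at 50.6 and 32.1 TPM in DMSO, with a log2 fold change of -1.03 (adjusted p = 0.0621). Eif6, which keeps the subunits apart until they are needed, was at 477 and 450.3 TPM in control and at 213 and 316 TPM in DMSO, with a log2 fold change of -0.84 (adjusted p = 0.0764). The libraries of Eif5 and Eif6 did not overlap, but neither passed the test. Eif1ax, the X-linked relative of Eif1a, was at 25.2 and 31.1 TPM in control and at 21.1 and 22.2 TPM in DMSO, a log2 fold change of -0.36 (adjusted p = 0.356).

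Related genes were also set against each other within a library. The log2 ratio of Eif1a to Eif1ax was 1.29 and 0.95 in control embryos and 0.27 and 0.40 in DMSO-treated embryos, a difference of -0.78 with no overlap. The log2 ratio of Eif4a1 to Eif4a2 was 1.60 and 2.18 in control and 1.44 and 1.71 in DMSO, and its groups overlapped, as did those of Eif1 to Eif1b and of Eif4g1 to Eif4g3. In a two-sided exact permutation test over the 4 libraries, p was 0.333 for the Eif1a pair and between 0.667 and 1 for the other pairs, and 0.333 is the smallest p that 2 against 2 libraries allow. After adjustment over the 4 pairs the p of the Eif1a pair was 1.

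Of the 6 elongation and release factors 1 fell and none rose, a share near the 14.1% of all genes called lower. This was Gspt1, which encodes the release factor eRF3, a GTPase that acts with eRF1 at the stop codon (chromosome 16, 11219292 to 11254325 on GRCm38, minus strand). Gspt1 was at 133 and 156 TPM in control embryos and at 33.6 and 61.0 TPM in DMSO-treated embryos. The DMSO libraries held 32.7% of the control mean, with a log2 fold change of -1.65 (SE 0.34, adjusted p = 0.0279). With quantile normalization Gspt1 was not called, with a log2 fold change of -1.36 (adjusted p = 0.0503). Etf1, which encodes eRF1 itself, was at 271 and 299 TPM in control and at 186 and 224 TPM in DMSO. Its groups did not overlap, and the log2 fold change of -0.47 did not pass the test (adjusted p = 0.195).

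Eef1a1, which delivers aminoacyl-tRNA to the ribosome, was at 28.7 and 82.5 TPM in control embryos and at 65.5 and 55.4 TPM in DMSO-treated embryos. Both DMSO libraries lay between the control libraries, and the log2 fold change of 0.30 (SE 0.48, adjusted p = 0.664) turned to -0.45 without control replicate 1. Other genes share 51.5% of the words of Eef1a1, which has many processed copies in the genome. Its exchange complex recharges it with GTP. Of the genes of this complex, Eef1d was at 247 and 267 TPM in control and at 126 and 172 TPM in DMSO, with a log2 fold change of -0.80 (adjusted p = 0.0759). Eef1b2 was at 118 and 113 TPM in control and at 98.7 and 73.4 TPM in DMSO, and Eef1g at 29.0 and 36.1 TPM in control and 22.1 and 22.6 TPM in DMSO. Other genes share 47.6% of the words of Eef1g, so its level is uncertain. None of these genes of the exchange complex passed the test, though for all 3 the DMSO libraries lay below the control libraries.

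The DMSO replicates were compared with each other as well. DMSO replicate 2 had the higher value of the DMSO libraries for 26 of the 37 factors and for 11 of the 13 eIF3 subunits, against 45.9% of all genes tested. In the eIF1, eIF5 and eIF6 group it was the higher for 3 of 8. For 8 factors more than 25% of the 31-base words occur in other genes, and of these Eif3d and Eif3h fell. Of 15 factors with less than 5% of their words in other genes, 7 fell, beside 14.1% of all genes called lower. Adding the genes whose words lie mostly inside a factor altered only Eif3e and Pabpc1 among the factors that fell, and Eif3d and Eif3h have no such gene, so the effect of shared sequence on their values was not tested.

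The other genes of the pathway were listed by role. Of 55 genes 53 have a row, and 50 of these were tested. Of the 50, 19 fell (38%, against 14.1% of all genes) and 4 rose, which is near the 6.42% of all genes called higher, and the median log2 fold change was -0.61. eIF2 brings the initiator tRNA, and eIF2B is its exchange factor. Of their 9 genes 7 fell (77.8%, against 14.1% of all genes) and none rose, with a median of -1.37. Those that fell included Eif2b4 and Eif2b5, named here after their values had been seen. Neither was called with quantile normalization, with median-ratio scaling or without mitochondrial genes. With quantile normalization 5 of the 9 were called, and the log2 fold change was -1.02 for Eif2b4 and -0.82 for Eif2b5. The beta subunit Eif2s2 was at 258 and 300.2 TPM in control embryos and at 73.3 and 88.4 TPM in DMSO-treated embryos, a log2 fold change of -1.78 (adjusted p = 0.0181). Eif2b3, a subunit of the catalytic part of eIF2B, was at 53.6 and 67.6 TPM in control and at 14.0 and 22.4 TPM in DMSO, a log2 fold change of -1.71 (adjusted p = 0.0239). The groups did not overlap for either gene. The gamma subunit Eif2s3x was at 17.0 and 10.0 TPM in control and at 1.14 and 2.03 TPM in DMSO, a log2 fold change of -2.47 (adjusted p = 0.0198), with 35.6% of its words in other genes.

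Of 11 other start and recycling factors tested, 3 fell (27.3%, against 14.1% of all genes) and none rose, with a median of -0.42. Mcts1, which acts with Denr in reinitiation and recycling, was at 43.4 and 49.9 TPM in control embryos and at 4.96 and 6.50 TPM in DMSO-treated embryos, a log2 fold change of -2.83 (SE 0.29, adjusted p = 0.0181). Abce1, the ATPase that splits the ribosome after termination, was at 28.9 and 32.2 TPM in control and at 4.73 and 6.44 TPM in DMSO, a log2 fold change of -2.27 (adjusted p = 0.0181). Eif1ad, which resembles Eif1a, was at 77.6 and 81.9 TPM in control and at 18.5 and 23.4 TPM in DMSO, a log2 fold change of -1.89 (adjusted p = 0.0181). All 3 had both DMSO libraries far below both control libraries.

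Of 12 regulators of cap and tail tested, 2 fell, a share near the 14.1% of all genes called lower, and 3 rose, beside 6.42% of all genes called higher. The median was -0.23. Larp1, which binds the cap of mRNAs for ribosomal proteins, fell from 27.9 and 32.3 TPM in control embryos to 3.72 and 8.96 TPM in DMSO-treated embryos (log2 fold change -2.18, adjusted p = 0.0239). Mknk1, a kinase of eIF4E, fell from 12.5 and 6.76 TPM to 3.03 and 0.864 TPM (log2 fold change -1.90, adjusted p = 0.0412). Pabpc1l, the poly(A)-binding protein of oocytes and early embryos, rose from 6.46 and 2.73 TPM to 27.8 and 14.4 TPM (log2 fold change 2.00, SE 0.47, adjusted p = 0.0345). Its direction was opposite to that of Pabpc1, while Pabpc4, another cytoplasmic member, named here after its values had been seen, was at 424 and 369 TPM in control and at 364 and 335 TPM in DMSO (log2 fold change -0.18, adjusted p = 0.597), with 63.3% of its words in other genes. The other regulators that rose were cap-binding proteins related to eIF4E, named here after their values had been seen. Eif4e1b, the form of the germ line, rose from 17.8 and 10.3 TPM to 50.1 and 32.0 TPM (log2 fold change 1.49, SE 0.37, adjusted p = 0.0390). Eif4e3 rose from 68.1 and 52.3 TPM to 154 and 115 TPM (log2 fold change 1.15, SE 0.29, adjusted p = 0.0389). Eif4e2 thus fell while these relatives rose, and the groups of all 3 genes did not overlap.

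**Figure D4:**
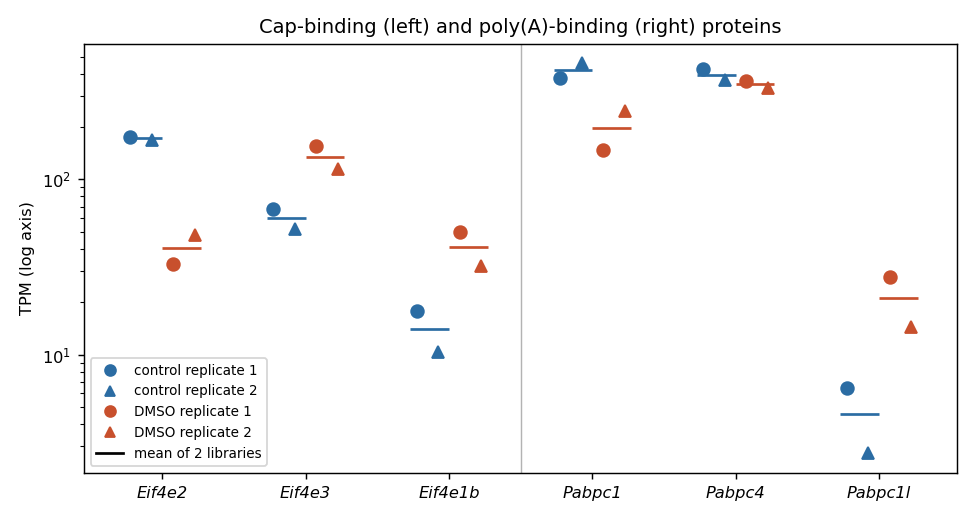
TPM of cap-binding and poly(A)-binding genes in the 4 libraries, on 1 log axis, with 1 point per library and a line at the mean of the 2 libraries of each group. Eif4e2 and Pabpc1 are lower in both DMSO libraries, and Eif4e1b, Eif4e3 and Pabpc1l are higher in both.

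Of 9 other elongation and release genes tested, 5 fell (55.6%, against 14.1% of all genes) and 1 rose, with a median of -1.39. Dph2 and Dph3 serve the synthesis of diphthamide, the modified histidine of elongation factor eEF2. Dph3 was at 199.6 and 219 TPM in control embryos and at 27.7 and 42.8 TPM in DMSO-treated embryos, a log2 fold change of -2.57 (adjusted p = 0.0181), and Dph2 at 32.3 and 32.2 TPM in control and 3.35 and 6.50 TPM in DMSO, a log2 fold change of -2.54 (adjusted p = 0.0181). The control and DMSO libraries of both were widely separated. Eefsec, the elongation factor for selenocysteine, rose from 2.43 and 1.03 TPM to 10.0 and 6.16 TPM (log2 fold change 1.75, adjusted p = 0.0347). The other genes of this list that fell were Eef1e1, Dhps and Dph5, named here after their values had been seen. Dhps was not called with quantile normalization (log2 fold change -1.14) or without mitochondrial genes (-1.30), nor Dph5 with median-ratio scaling (-1.40). Dhps carries out the first step of hypusine synthesis on eIF5A, whose gene Eif5a did not pass the test.

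Of 9 mitochondrial translation factors tested, which act on the ribosome inside mitochondria, 2 fell, a share of 22.2% near the 14.1% of all genes called lower, and none rose, with a median of -0.40. Tufm, the mitochondrial elongation factor Tu, was at 20.9 and 43.8 TPM in control embryos and at 2.82 and 4.10 TPM in DMSO-treated embryos, a log2 fold change of -2.83 (adjusted p = 0.0181), with 58.2% of its words in other genes. Mtif2, the mitochondrial initiation factor, was at 3.36 and 3.22 TPM in control and at 0.597 and 1.08 TPM in DMSO, a log2 fold change of -1.23 (adjusted p = 0.0492) that the pseudocount makes smaller than the change in TPM. Mtif2 was not called with median-ratio scaling (log2 fold change -1.16) or without mitochondrial genes (log2 fold change -1.24). Both factors, which are encoded in the nucleus, had lower values in each DMSO library than in each control library.

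**Figure D5:**
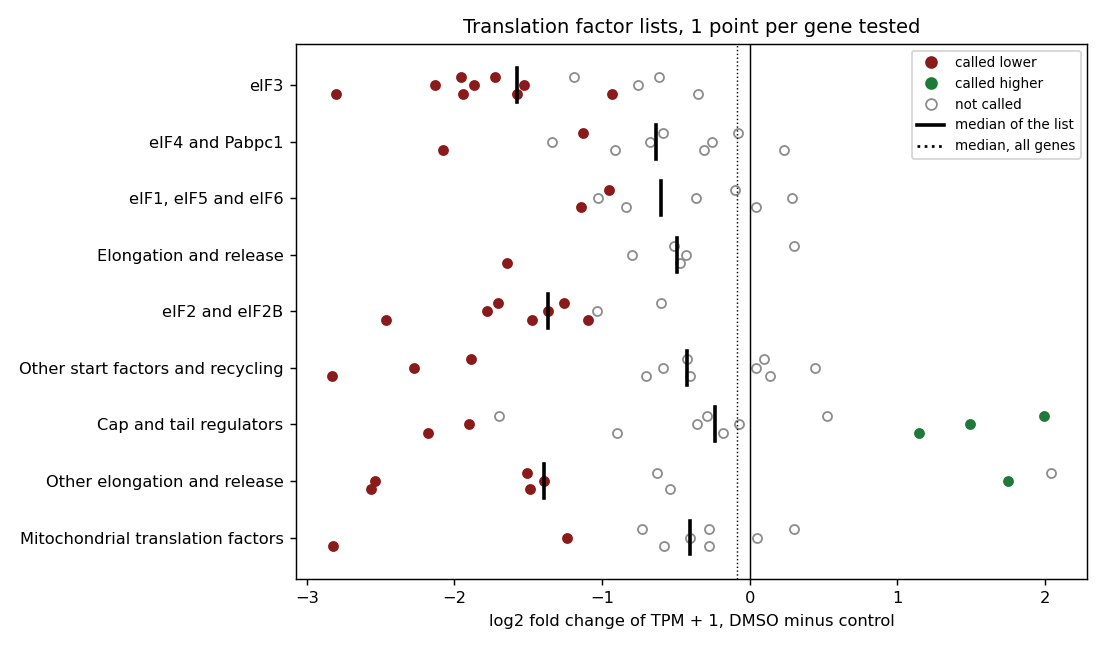
Log2 fold change of TPM + 1, DMSO minus control, for the 4 groups of translation factors and 5 further lists, with 1 point per gene tested, filled where called, and a bar at each list's median. The medians run from -1.58 for eIF3 to -0.23 for the regulators of cap and tail, beside -0.09 over all genes tested.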

How the data were processed

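RNA of pooled 2-cell mouse embryos was measured in 4 libraries, 2 control and 2 DMSO, grouped by the sample labels. Libraries were made with a SMARTer kit for ultra-low input. The authors quantified reads with kallisto on an Ensembl transcriptome of GRCm38, whose release is written unclearly and was read here as 79, summed transcripts per gene with tximport and deposited TPM values for 30049 genes; version numbers are not given in the sources used here. The authors' own test was DESeq2. TPM values are not counts and keep no depth, so no count test was run and no detection limit was derived. The control columns were matched to a sample by name. The columns labelled treated were taken to be the samples titled 2% DMSO, matched by replicate number.

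Identifiers were named with GENCODE M21 on GRCm38, which matched 29668 of 30049. The 12038 genes that averaged 1 TPM or more were compared as log2(TPM + 1) values by limma (version 3.58.1, R version 4.3.3; lmFit, eBayes with a mean-variance trend, Benjamini-Hochberg adjustment, threshold 0.05). A fold change on this scale understates that of low genes. Shared sequence is the percentage of a gene's 31-base words found in transcripts of other genes, and a gene was added to a factor where at least 50% of its words lie inside it. Promoter windows came from RefSeq on GRCm38.p6. Ratios of related genes were tested by exact permutation over the 4 libraries. Only the limma step was tested on simulated data, in which noise was independent between libraries. Other steps ran in Python 3.11.15 (numpy 2.4.6, pandas 2.3.3, matplotlib 3.10.9, scipy 1.17.1).

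The factors, lists and tests were chosen with earlier results of these data known. All factors are named; of each further list the 3 genes with the largest log2 fold change, by absolute value, among those called are named, and genes named outside this rule are marked as such. Alternatives were a pseudocount of 0.1, no filter, a mean of at least 5 TPM, quantile normalization, median-ratio scaling, no trend, the replicate number as a block, summing with genes that share sequence, and leaving out each library. Rescaling without mitochondrial genes and quantile normalization with the block were added after the data had been seen.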

Additional observations from a re-analysis of the deposited data

How the results depend on the processing

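For the 37 factors, 14 were called lower. The count was 0 with no filter on low values (0 for each of the 4 groups, and 0 of all genes), 7 with quantile normalization and 23 with the replicate block. With quantile normalization and the block it was 18. Of the 9 eIF3 calls, that of Eif3f was lost with a pseudocount of 0.1, without a trend and without mitochondrial genes. Median-ratio scaling lost Eif3f and Eif3k, and quantile normalization lost Eif3f, Eif3g and Eif3k. The eIF4 group, with 2 calls, had 1 with a pseudocount of 0.1, without a trend, with median-ratio scaling, with quantile normalization and without mitochondrial genes, 5 with the block and 4 with quantile normalization and the block. The eIF1, eIF5 and eIF6 group, with 2 calls, had 1 without a trend, with median-ratio scaling and without mitochondrial genes, 0 with quantile normalization and 4 with the block. Elongation and release factors, with 1 call, had 0 with quantile normalization and 2 with the block. With quantile normalization, with or without the block, the median log2 fold change was -0.57 for the 37 factors, -0.36 for the eIF4 group, -0.36 for eIF1, eIF5 and eIF6, and -0.27 for elongation and release. The cause of these shifts was not tested.

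Leaving out 1 library gave 0 to 13 factors called lower, 0 to 8 eIF3 subunits, 0 to 3 eIF4 group genes, 0 to 1 of eIF1, eIF5 and eIF6, 0 to 1 elongation and release factors and 0 to 1883 of all genes, where 2470 were called in all 4 libraries. The lone library was then assumed to vary like the other group. The medians ranged from -0.94 to -0.65 for the 37 factors, from -1.89 to -1.39 for eIF3, from -0.68 to -0.42 for the eIF4 group, from -0.65 to -0.53 for eIF1, eIF5 and eIF6 and from -0.61 to -0.44 for elongation and release. The log2 ratio of DMSO to control ranged from -0.26 to 0.54 for Eif1 over Eif1b, from -0.95 to -0.61 for Eif1a over Eif1ax, from -0.60 to -0.02 for Eif4a1 over Eif4a2 and from -0.23 to 0.70 for Eif4g1 over Eif4g3.

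Libraries of the same replicate number share only a number in the labels. Their deviations from the group means correlated at r = 0.35 over 12038 genes, which are not independent. With the replicate block 5132 of all genes were called, and 4732 with quantile normalization and the block. The further factors called lower with the block were Eif3b, Eif3i, Eif3j1, Eif4g1, Eif4g3, Eif4h, Eif5, Eif6 and Eef1d. The block gave 4 cap and tail regulators called lower in place of 2 and 2 other elongation and release genes called higher in place of 1. All 14 factors stayed called with it, and also with quantile normalization and the block.

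No called factor changed direction. The log2 fold change of Eif4a1, -0.08 in the report, was 0.024 with median-ratio scaling, 0.020 without mitochondrial genes, 0.17 with quantile normalization with or without the block, and -0.23 to 0.078 with 1 library left out. That of Eif1, 0.04 in the report, was -0.027 with quantile normalization with or without the block and -0.050 to 0.14 with 1 library left out. That of Eif1b, -0.10 in the report, was 0.0015 with median-ratio scaling, 0.18 with quantile normalization with or without the block, and -0.51 to 0.32 with 1 library left out. That of Eef1a1, 0.30 in the report, was -0.45 to 1.04 with 1 library left out, the lowest value being that without control replicate 1.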

Other observations

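The 8 markers of blastocyst lineages summed to 23.0 and 17.2 TPM in the control libraries and to 26.8 and 25.3 TPM in the DMSO libraries, with Nanog the most abundant in each. None of them that was tested was called. Oosp1, an oocyte-secreted protein, was at 877 and 576 TPM in control and at 2086 and 1763 TPM in DMSO (log2 fold change 1.43, limma adjusted p = 0.0273). Bmp15, a growth factor of the oocyte, was at 102 and 56.0 TPM in control and at 544 and 285 TPM in DMSO (log2 fold change 2.36, limma adjusted p = 0.0221). Eef2k, the kinase that inhibits elongation factor eEF2, was at 29.1 and 9.09 TPM in control and at 142 and 35.1 TPM in DMSO, with a log2 fold change of 2.04 that did not pass the test (limma adjusted p = 0.0910). It is named here after its values had been seen.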
